A study of Mus musculus with 6 samples.

Results

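The genes described here are 10 members of the bone morphogenetic protein (BMP) pathway: the ligands Bmp2, Bmp4 and Bmp7, the receptors Bmpr1a and Bmpr2, the Id targets Id1, Id2 and Id3, the inhibitory Smad6 and the extracellular antagonist Grem1. They were chosen by symbol, with results of the same comparison already known, and are measured by 21 of the 45037 probe sets, each assigned to 1 gene alone. All differences of these 10 genes between the fractions are therefore given as a description, without a p-value, and are not used as evidence. Gene expression was measured in 3 CD133 high and 3 CD133 low fractions sorted by flow cytometry from 344SQ tumours. 344SQ is a metastatic lung adenocarcinoma line from a mouse that carried p53R172HdelG/+, so the tumour cells, though not necessarily host cells, of both fractions carry an altered p53 allele. It was grown under the skin of syngeneic mice. CD133 is the surface glycoprotein encoded by Prom1. The labels give no treatment, no age of the hosts, no gate and no step that removed host cells, and they describe a single tumour line. Whether arrays of the same fraction represent different tumours, hosts or sorts is not stated, so their spread may be technical.

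BMP ligands are secreted dimers that bring together type I receptors such as BMPR1A and the type II receptor BMPR2. The type I receptor then phosphorylates SMAD1, SMAD5 and SMAD9, which enter the nucleus with SMAD4 and switch on genes such as Id1, Id2, Id3 and the feedback inhibitor Smad6. Id proteins lack a DNA-binding region and hold basic helix-loop-helix factors in inactive dimers, while GREM1 binds BMP ligands outside the cell. In the lung the pathway takes part in branching and in the balance of progenitor and differentiated epithelial cells.

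Values are log2 probe set values, where a difference of 1 is a doubling. Their medians lay between 6.60 and 6.77 on the 6 arrays. CD133 high replicate 1 stood apart from the other CD133 high arrays: its mean Spearman rho across probe sets was 0.931 with those arrays and 0.973 with the CD133 low arrays. Hybridisation controls averaged 9.94 to 10.28 on the CD133 low arrays and 10.18 on CD133 high replicate 1, against 11.05 and 10.81 on CD133 high replicates 2 and 3. The Gapdh 3' probe set exceeded the middle one by 0.44 and 0.46 on replicates 2 and 3 and by −0.13 to −0.07 on the other 4 arrays. Prom1 was higher on all 3 CD133 high arrays at its brightest probe set, at 6.40 to 6.80 against 5.49 to 6.06. The difference was 0.79 (SE 0.26), or 1.73-fold, at a mean in percentile 43.4 of all probe sets. Epithelial markers such as Epcam (10.20 to 10.86) and Cdh1 (12.28 to 12.52) were present on all 6 arrays, as were macrophage and fibroblast genes such as Csf1r (12.78 to 13.24) and Col3a1 (13.77 to 14.13).

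Bmp2 was higher and Bmp4 lower in the CD133 high fraction, both receptors were higher at their brightest probe sets, and Smad6 was higher. The Id genes, although they are the classical targets of the pathway, did not separate the fractions. They were high on CD133 high replicate 1 and mostly below the CD133 low arrays on replicates 2 and 3. Of the 21 probe sets, 8 had all CD133 high arrays above all CD133 low arrays and 1 had them all below, beside 10.3% and 10.5% of all probe sets. Of those 8, 4 measure Bmpr1a and 2 measure Bmpr2. With each gene at its brightest probe set, 4 of the 10 genes were above and 1 was below, beside 10.8% and 12.8% of all genes. The median difference over the 10 genes, each at its brightest probe set, was 0.29, and that of all 18193 genes was 0.0013.

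**Figure D1:**
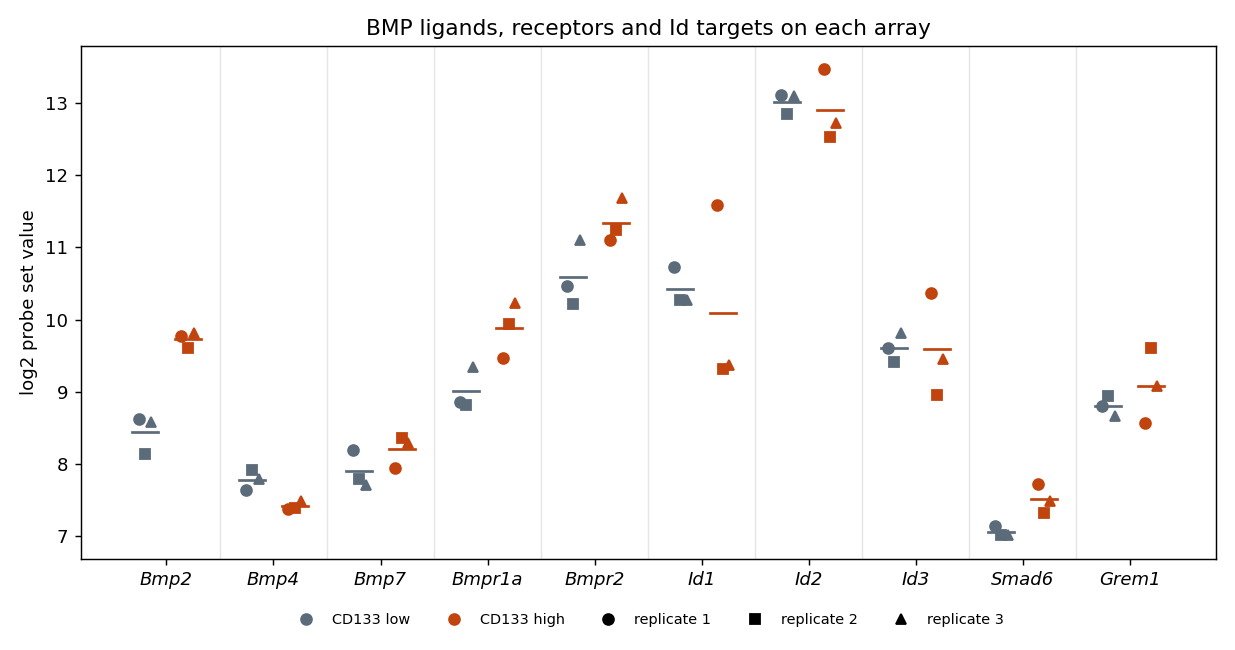
Log2 probe set value (vertical axis) of each of the 10 genes at its brightest probe set, with 1 point per array, horizontal lines for the mean of 3 arrays, and marker shapes for the replicate number, which pairs no samples. Bmp2 separates the fractions by the widest gap, from 8.62 on the highest CD133 low array to 9.61 on the lowest CD133 high array, while Id1 lies at 11.58 on CD133 high replicate 1 and at 9.31 and 9.38 on replicates 2 and 3.

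Among the ligands, Bmp2, which activates SMAD1 and SMAD5 in many epithelia, stood at 9.78, 9.61 and 9.82 on CD133 high replicates 1, 2 and 3 and at 8.62, 8.14 and 8.58 on CD133 low replicates 1, 2 and 3, and values of other genes follow in that order. The fractions did not overlap, and the 3 CD133 high arrays lay close to each other. The means were 9.73 ± 0.109 and 8.45 ± 0.268 (SD, n = 3 arrays each), a difference of 1.29 (SE 0.18) or 2.44-fold. Without CD133 high replicate 1 the Bmp2 difference was 1.27, so the array that stood apart from its fraction in other genes did not do so in Bmp2.

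Bmp4, a close relative of Bmp2 that binds the same receptors, went the other way. It had log2 values of 7.38, 7.39 and 7.50 on the CD133 high arrays and of 7.65, 7.92 and 7.79 on the CD133 low arrays. All CD133 high values lay below all CD133 low values, with a difference of −0.36 (SE 0.16), or 1.28-fold lower in the CD133 high fraction. The highest CD133 high and the lowest CD133 low array of Bmp4 were only 0.15 apart, less than the range of 0.27 among the CD133 low arrays.

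Bmp7, a ligand of another BMP subgroup that also signals through ACVR1, has 3 probe sets. At the brightest it had log2 values of 7.95, 8.37 and 8.29 on the CD133 high arrays and of 8.20, 7.79 and 7.71 on the CD133 low arrays. The fractions overlapped at all 3 probe sets, although each mean was higher in the CD133 high fraction, by 0.30 (SE 0.21), 0.49 (SE 0.25) and 0.62 (SE 0.37).

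The genes with the profile most like that of Bmp2 were Nptx1, Thbs4 and Tspan12, ranked over 12936 genes with a mean of at least 6 by the root mean square difference between profiles over the 6 arrays, each centred on its own mean. That difference was 0.14 for Nptx1, a secreted neuronal pentraxin, 0.15 for Thbs4, a matrix thrombospondin, and 0.16 for Tspan12, a tetraspanin. Their differences between the fractions were 1.38, 1.17 and 1.20, against 1.29 for Bmp2.

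Of the receptors, Bmpr1a encodes a type I receptor kinase that phosphorylates the BMP SMADs. At its brightest probe set it had log2 values of 9.47, 9.94 and 10.23 on the CD133 high arrays and of 8.86, 8.81 and 9.35 on the CD133 low arrays. The fractions did not overlap, but CD133 high replicate 1 lay only 0.12 above CD133 low replicate 3. The difference was 0.87 (SE 0.25), or 1.83-fold.

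All 6 probe sets of Bmpr1a had a higher mean in the CD133 high fraction, by 0.27 to 0.87, and 4 of them had fractions that did not overlap. They measure 1 gene and are not independent of each other. On CD133 high replicate 1 they lay 0.05 to 0.52 above the mean of the CD133 low arrays, on replicate 2 0.17 to 1.41, and on replicate 3 0.12 to 1.22. Without replicate 1 the difference at the brightest probe set was 1.08.

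Bmpr2, the type II receptor that BMP ligands need to activate the type I kinase, had log2 values of 11.11, 11.24 and 11.68 on the CD133 high arrays and of 10.47, 10.21 and 11.10 on the CD133 low arrays at its brightest probe set. The fractions nearly met: CD133 high replicate 1 exceeded CD133 low replicate 3 by only 0.012. The difference was 0.75 (SE 0.27), or 1.68-fold.

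One other probe set of Bmpr2 stood at 7.02, 7.58 and 8.25 against 6.35, 6.20 and 6.71, a difference of 1.19 (SE 0.34) with no overlap. The third, the dimmest, had 5.08, 3.50 and 2.48 against 5.27, 5.79 and 4.96, and 3 of its values were below 5, where values are dim. With those set to 5, its difference was −0.33. With the mean of the 3 probe sets in place of the brightest, the Bmpr2 difference was 0.10, or 0.54 with values below 5 set to 5, an alternative chosen after seeing the data, so the size of the Bmpr2 difference depends on the probe sets used. The summed level of 10 fibroblast markers was highest on CD133 high replicate 3, the array on which both brighter Bmpr2 probe sets were highest, and its part in the Bmpr2 values was not tested.

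The upstream sequences of both receptor genes are shown because the receptors were higher together at their brightest probe sets. They are the 250 bases before the annotated start in RefSeq (GRCm38.p6), 5′ to 3′ on the gene's strand. Capitals mark GGCGCC, a GC-rich element known to bind SMAD1 and SMAD5, and GTCT or its reverse complement AGAC, the short box bound by SMAD4.
Bmpr1a, chr14:34502547-34502796, minus strand: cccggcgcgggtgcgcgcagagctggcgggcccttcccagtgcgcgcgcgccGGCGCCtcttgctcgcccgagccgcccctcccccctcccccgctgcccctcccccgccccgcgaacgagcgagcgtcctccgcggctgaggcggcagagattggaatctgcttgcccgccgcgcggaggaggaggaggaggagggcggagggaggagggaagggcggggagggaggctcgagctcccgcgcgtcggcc
Bmpr2, chr1:59764029-59764278, plus strand: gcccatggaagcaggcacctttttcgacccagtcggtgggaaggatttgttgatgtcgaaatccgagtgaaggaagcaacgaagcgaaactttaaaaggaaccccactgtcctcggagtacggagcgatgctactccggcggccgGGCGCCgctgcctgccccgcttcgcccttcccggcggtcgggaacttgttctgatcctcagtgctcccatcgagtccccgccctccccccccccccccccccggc

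Each receptor sequence held 1 GGCGCC, whose first base lay 198 bases before the start in Bmpr1a and 105 in Bmpr2, and neither held GTCT or AGAC. The element GGCGCC, which reads the same on both strands, occurred in 3149 of 32851 upstream sequences of this length in the table (9.59%). The table held such a sequence for 7 of the 10 genes, and GGCGCC was in 4 of those, those of Bmpr1a, Bmpr2, Id2 and Grem1. The GC content of the 7 was 62.8% to 78.8%, and it reached 78.8% in Bmpr1a. That of the other upstream sequences was not computed, so the shares with GGCGCC were not compared at like GC content. A match describes letters and not a bound site.

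Id1, the Id gene most often used as a readout of BMP signalling, had log2 values of 11.58, 9.31 and 9.38 on CD133 high replicates 1, 2 and 3 and of 10.73, 10.27 and 10.27 on the CD133 low arrays. Replicate 1 was above and replicates 2 and 3 were below every CD133 low array. The mean difference of −0.33 (SE 0.60) joined a value 1.16 above the CD133 low mean with values 1.11 and 1.05 below it. CD133 high replicate 1 exceeded the mean of replicates 2 and 3 by 2.24, or 4.72-fold, and the SD was 1.29 in the CD133 high fraction against 0.267 in the CD133 low fraction.

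Id2, which is also expressed in innate lymphocytes and dendritic cells, had CD133 high replicates 2 and 3 below all CD133 low arrays at all 3 probe sets. At the brightest it had log2 values of 13.47, 12.53 and 12.73 on the CD133 high arrays and of 13.10, 12.85 and 13.09 on the CD133 low arrays. At the next it stood at 12.92, 11.19 and 11.26 against 12.47, 12.35 and 12.45. At both, replicate 1 was above all CD133 low arrays.

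The third probe set of Id2 stood at 10.07, 9.10 and 8.56 against 9.42, 10.11 and 9.47. Here replicates 2 and 3 were again the lowest of the 6 arrays, while replicate 1 lay within the range of the CD133 low arrays. The differences between the fractions at the 3 probe sets were −0.11 (SE 0.27), −0.64 (SE 0.45) and −0.42 (SE 0.40).

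Id3, a target of both BMP and T-cell receptor signals, had log2 values of 10.37, 8.96 and 9.45 on the CD133 high arrays and of 9.61, 9.41 and 9.81 on the CD133 low arrays. Replicate 1 was the highest of the 6 arrays and replicate 2 the lowest, while replicate 3 lay within the CD133 low range. The difference was −0.02 (SE 0.35).

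In all, 4 of the 5 Id probe sets had CD133 high replicate 1 above every CD133 low array, beside 29.8% of all probe sets. Replicates 2 and 3 were both below every CD133 low array in 4 of the 5, beside 26.2%, and both held in 3 of the 5, beside 6.87%. Those with both belong to Id1 and Id2 only. Id2 has 3 of the 5 probe sets, and probe sets of 1 gene are not independent of each other. The remaining 16 probe sets of the 10 genes included none with both. Without CD133 high replicate 1 the differences at the brightest probe sets were −1.08 for Id1, −0.39 for Id2 and −0.41 for Id3. With the mean hybridisation control as a covariate they turned to 1.19, 0.54 and 0.90. That control was 11.05 and 10.81 on CD133 high replicates 2 and 3. It was 9.94 to 10.28 on the CD133 low arrays and 10.18 on replicate 1. The covariate thus overlaps with the fraction, and the adjusted difference leans on replicate 1. That array alone lay 1.16, 0.45 and 0.76 above the CD133 low mean. The direction of the Id genes therefore depends on the array and the model.

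**Figure D2:**
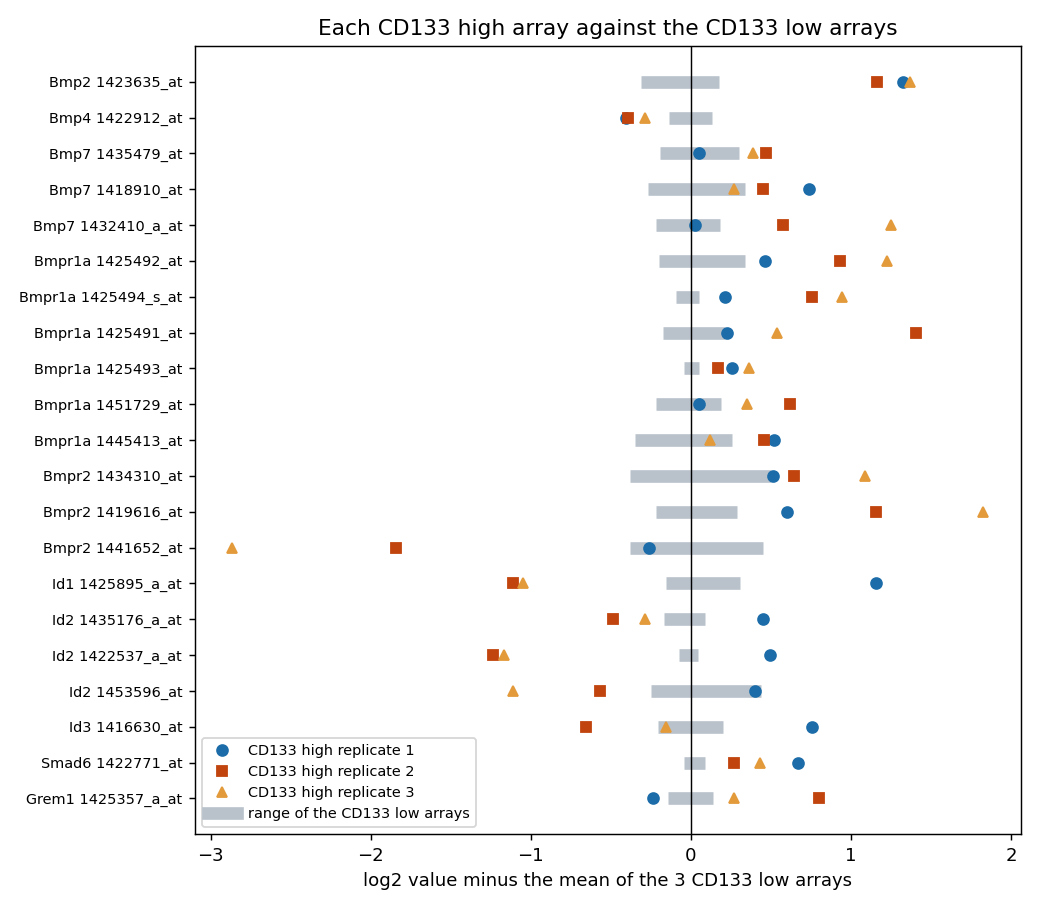
Log2 value of each CD133 high array minus the mean of the 3 CD133 low arrays (horizontal axis) for all 21 probe sets of the 10 genes (rows), with grey bars for the range of the CD133 low arrays around their mean. The 3 CD133 high arrays lie together for Bmp2 (1.16 to 1.37) and Bmp4 (−0.40 to −0.29), and apart for Id1, where replicate 1 is at 1.16 and replicates 2 and 3 are at −1.11 and −1.05.

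The upstream sequences of Id2 and Id3 are shown because their values split the CD133 high arrays. At the brightest probe sets replicate 1 was above, and replicate 2 below, every CD133 low array. In Id2 replicate 3 was below as well, whereas in Id3 it lay within the CD133 low range. The Smad6 sequence is shown because Smad6, a target of the same SMADs, was above every CD133 low array on all 3. The source held no such sequence for Id1. Source, length and capitals are as for the receptors.
Id2, chr12:25096093-25096342, minus strand: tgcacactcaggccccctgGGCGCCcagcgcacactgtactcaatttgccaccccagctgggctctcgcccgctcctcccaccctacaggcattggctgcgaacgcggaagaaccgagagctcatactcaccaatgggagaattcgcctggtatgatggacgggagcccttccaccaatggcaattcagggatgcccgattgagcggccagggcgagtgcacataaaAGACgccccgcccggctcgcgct
Id3, chr4:136143572-136143821, plus strand: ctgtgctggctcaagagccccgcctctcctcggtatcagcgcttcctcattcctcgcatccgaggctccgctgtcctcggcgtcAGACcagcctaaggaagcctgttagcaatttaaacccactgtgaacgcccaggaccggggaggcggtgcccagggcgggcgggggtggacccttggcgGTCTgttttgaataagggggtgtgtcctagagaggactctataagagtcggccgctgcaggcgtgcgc
Smad6, chr9:64022060-64022309, minus strand: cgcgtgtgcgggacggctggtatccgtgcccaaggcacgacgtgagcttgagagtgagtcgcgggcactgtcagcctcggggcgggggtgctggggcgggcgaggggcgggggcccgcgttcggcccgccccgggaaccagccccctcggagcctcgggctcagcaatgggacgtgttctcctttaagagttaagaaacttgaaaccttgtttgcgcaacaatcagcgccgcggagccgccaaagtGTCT

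The sequence of Id2 held 1 GGCGCC, with its first base 231 bases before the start, and 1 AGAC at 23. That of Id3 held no GGCGCC but an AGAC at 166 and a GTCT at 68, and that of Smad6 held a GTCT in the last 4 bases before the start. GTCT or AGAC occurred in 82.9% of all upstream sequences of this length and in 5 of the 7, so it is common. The related element GGAGCC, or GGCTCC on the other strand, which is left in lower case, occurred in 26.0% of all and in 4 of the 7, those of Bmp4, Id2, Id3 and Smad6. As for GGCGCC, these shares were not compared at like GC content. No match of 1 motif overlapped a match of another in the printed sequences.

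Smad6, which binds type I receptors and SMAD1 and so blocks the signal, had log2 values of 7.73, 7.33 and 7.49 on the CD133 high arrays and of 7.15, 7.02 and 7.01 on the CD133 low arrays. The fractions did not overlap. The difference was 0.46 (SE 0.19), or 1.37-fold, and 0.35 without CD133 high replicate 1. Smad6 was highest on CD133 high replicate 1, as the Id genes were, but unlike Id1 it stayed above the CD133 low arrays on replicates 2 and 3 as well.

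Grem1, a secreted antagonist that binds BMP2 and BMP4, had log2 values of 8.57, 9.61 and 9.08 on the CD133 high arrays and of 8.81, 8.94 and 8.67 on the CD133 low arrays. Replicate 1 was the lowest of the 6 arrays and replicates 2 and 3 were the highest. The difference was 0.28 (SE 0.27), or 0.54 without CD133 high replicate 1, and −0.36 once the mean hybridisation control entered the model. As for the Id genes, that covariate overlaps with the fraction.

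Of 58 other genes of the pathway, 53 were measured, each at its brightest probe set. By limma with Benjamini-Hochberg adjustment over all probe sets, 0 of the 53 rose and 0 fell, beside 0.022% and 0.231% of all genes. At an unadjusted p under 0.05, 8 were higher (15.1%, beside 8.3% of all genes) and 4 lower (7.55%, beside 9.94%). The smallest adjusted p was 0.129. The median difference was 0.27 against 0.0013 over all genes. It was 0.07 with values below 5 set to 5, and 0.50 without the dimmest 50% of probe sets, where 30 of the 53 remained. Against the CD133 low mean, the median of the 53 was −0.01 on CD133 high replicate 1, 0.32 on replicate 2 and 0.40 on replicate 3. Replicates 2 and 3 had the higher hybridisation controls and Gapdh 3' excess, and the median was −0.026 with the mean hybridisation control in the model. In 11 genes the CD133 high arrays were all above the CD133 low arrays (20.8%, beside 10.8% of all genes) and in 7 all below (13.2%, beside 12.8%).

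The counts of calls changed when 1 array was left out or arrays were weighted. Without CD133 high replicate 1, 15 of the 53 rose (28.3%, beside 11.7% of all genes) and 4 fell (7.55%, beside 14.6%) in limma. That fit left only replicates 2 and 3 on the CD133 high side. In it the fraction cannot be told apart from the higher hybridisation controls and Gapdh 3' excess of these arrays. With array quality weights 7 rose (13.2%, beside 5.91% of all genes) and 1 fell (1.89%, beside 7.69%). Leaving out any other single array left 0 in each direction, where an unadjusted p under 0.05 was reached by 3 to 7 genes that were higher and 2 to 4 that were lower.

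**Figure D3:**
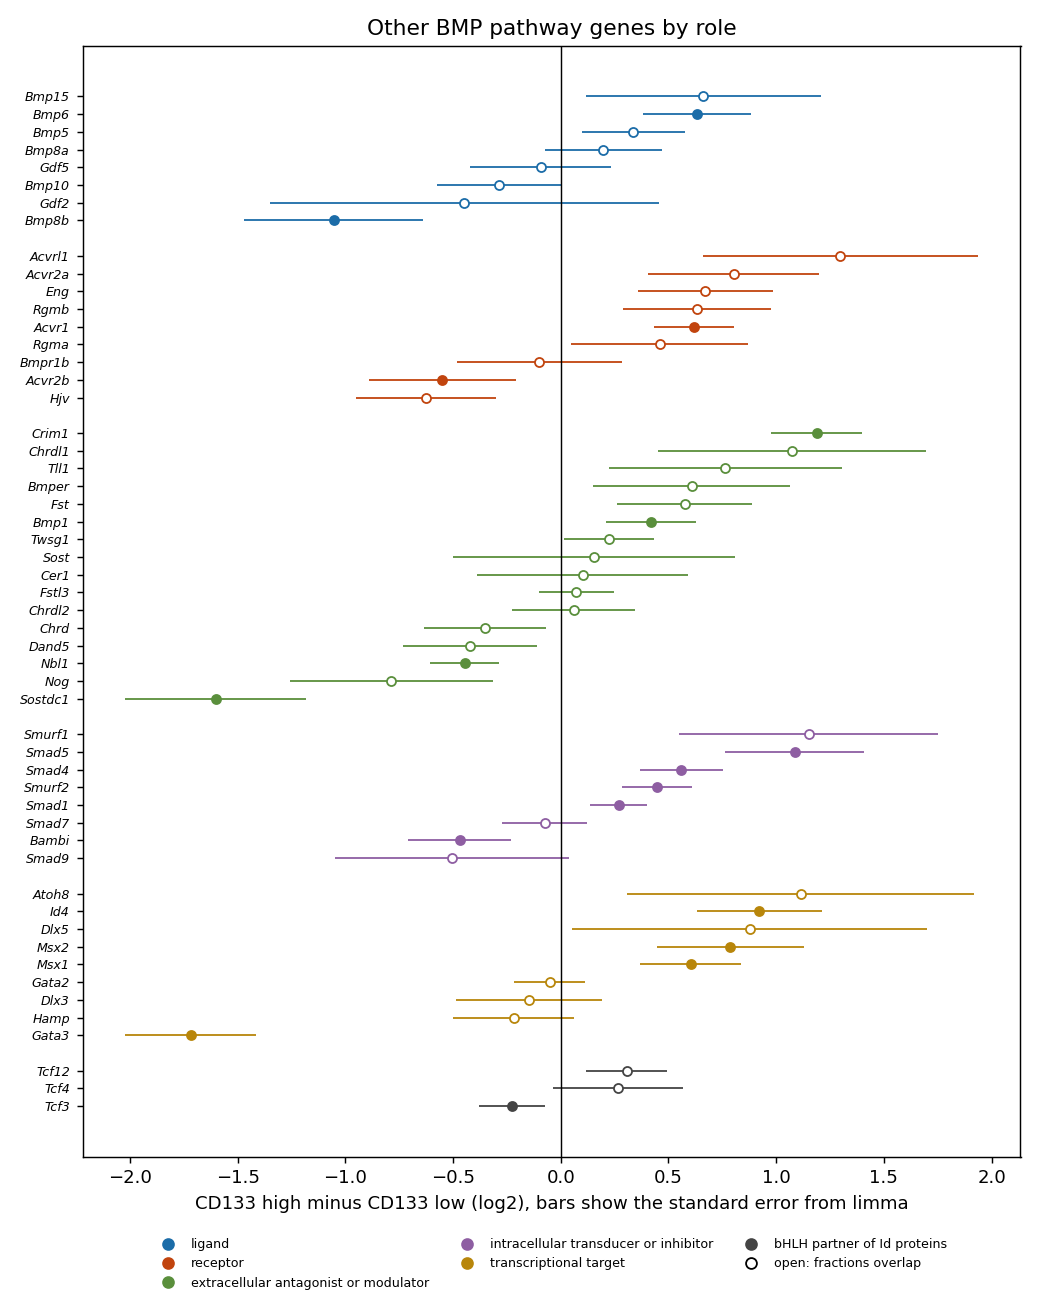
Difference between CD133 high and CD133 low (log2, horizontal axis) for the 53 other genes of the pathway, coloured by role, with bars of 1 standard error from limma and filled points where the fractions did not overlap. Crim1 (1.19) and Gata3 (−1.72) have the smallest adjusted p, 0.129 each.

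Among 8 other ligands none passed the test, and their median difference was 0.05. Bmp6, a ligand known for its role in iron balance, was at 6.33 ± 0.198 against 5.70 ± 0.239 (SD, n = 3 arrays each), a difference of 0.63 (limma adjusted p = 0.31). Bmp8b was at 3.51 against 4.56, where values are dim (−1.05, adjusted p = 0.308). With values below 5 set to 5 no difference of Bmp8b remained. Its other probe set differed by −0.08, with overlapping fractions. Bmp5 was at 7.22 against 6.89 (0.34, adjusted p = 0.484).

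The 9 other receptors and co-receptors had a median difference of 0.62, with none past the test. Their median against the CD133 low mean was −0.01 on CD133 high replicate 1 and 0.59 and 0.91 on replicates 2 and 3, whose hybridisation controls were also higher. Acvr1, a type I receptor that shares ligands with BMPR1A, had log2 values of 10.15, 10.40 and 10.72 on the CD133 high arrays and of 9.78, 9.68 and 9.95 on the CD133 low arrays, without overlap. The difference was 0.62 (SE 0.19, limma adjusted p = 0.297, range 0.0207 to 0.765 over all alternatives).

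Acvrl1 and Eng, a type I receptor and a co-receptor best known from endothelium, were highest on CD133 high replicate 3. Acvrl1 stood at 6.97, 7.94 and 9.72 against 6.83 to 7.01, and Eng at 8.41, 8.89 and 9.66 against 8.22 to 8.43. Their adjusted p in limma were 0.353 and 0.34. The second probe set of Acvrl1 differed by −0.44, and that of Eng by 0.05, so the difference was near 0 or of the other sign at the dimmer probe sets.

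The 16 antagonists and modulators had a median difference of 0.13. Crim1, a membrane protein that binds BMPs, had log2 values of 7.47, 7.54 and 7.75 on the CD133 high arrays and of 6.26, 6.26 and 6.68 on the CD133 low arrays. Every CD133 high value was above every CD133 low value, and the difference was 1.19 (SE 0.21, limma adjusted p = 0.129, range 0.0155 to 0.592 over all alternatives). The second Crim1 probe set gave 1.54 (adjusted p = 0.24). Sostdc1, a secreted BMP and Wnt antagonist, stood at 5.30, 6.47 and 5.58 against 6.74, 7.49 and 7.91, a difference of −1.60 (SE 0.42, adjusted p = 0.278). Its other probe set differed by 0.36. Nbl1, another secreted antagonist, was at 8.39 ± 0.0737 against 8.84 ± 0.193 (adjusted p = 0.299).

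Of the 8 intracellular transducers and inhibitors, Smad5 had log2 values of 8.85, 9.86 and 10.08 on the CD133 high arrays and of 8.58, 8.34 and 8.61 on the CD133 low arrays. The fractions did not overlap, with a difference of 1.09 (SE 0.32, limma adjusted p = 0.297), and most of it came from CD133 high replicates 2 and 3. Without replicate 1 Smad5 rose by 1.46 (adjusted p = 0.0040, range 0.0040 to 0.853 over all alternatives). In that fit the fraction and the higher hybridisation controls cannot be told apart. The other probe sets of Smad5 differed by 0.90 and 0.03. Smad4, the partner shared with the TGF-beta pathway, differed by 0.56 (SE 0.19, adjusted p = 0.297) at its brightest probe set and by 0.04 and −0.07 at the others. The ubiquitin ligase Smurf2 differed by 0.45 (SE 0.16, adjusted p = 0.3) at its brightest probe set. Its other probe sets differed by 0.33 and 0.09, with overlapping fractions.

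Among 9 other targets the median difference was 0.60, with none past the test. Id4, a relative of Id1 to Id3, had log2 values of 7.36, 7.96 and 7.32 on the CD133 high arrays and of 6.17, 6.93 and 6.77 on the CD133 low arrays. At this probe set, its brightest, Id4 was above the CD133 low arrays on all 3 CD133 high arrays, which Id1, Id2 and Id3 were not. The difference was 0.92 (SE 0.29, limma adjusted p = 0.297). The fractions overlapped at its other probe sets, which differed by 0.39 and 0.40. Whether Id4 differs from the other Id genes was not tested. Msx1, a homeobox target, differed by 0.60 (SE 0.23, adjusted p = 0.305) at its brightest probe set and by 0.08, with overlapping fractions, at the other.

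Gata3, which is both a BMP target in some tissues and a T-cell transcription factor, had log2 values of 4.81, 4.44 and 5.26 on the CD133 high arrays and of 6.65, 6.70 and 6.31 on the CD133 low arrays. The difference was −1.72 (SE 0.30, limma adjusted p = 0.129). The summed level of 10 lymphocyte markers was 10.90 to 11.00 in the CD133 high fraction and 13.10 to 13.50 in the CD133 low fraction on the log2 scale. In limma 6 of the 10 fell, beside 0.231% of all genes. The mean was higher in the CD133 high fraction for 2 of them, Cd8a (by 0.31) and Cd4 (by 0.44, at dim values), with overlapping fractions. The part of the lymphocyte markers in the Gata3 difference was not tested. Fewer lymphocytes and less RNA per lymphocyte cannot be told apart in bulk samples.

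The helix-loop-helix factors that Id proteins bind did not pass the test. Tcf3, Tcf4 and Tcf12 differed by −0.23, 0.27 and 0.31 (limma adjusted p = 0.462, 0.659 and 0.427), and the difference of Tcf4 turned to −0.14 with the mean of its probe sets (adjusted p = 0.732, range 0.282 to 0.998 over all alternatives). The other probe sets of Tcf3 differed by −0.59 and −0.71, without overlap (limma adjusted p = 0.297 and 0.303). Those of Tcf12 differed by −0.49 to 0.54.

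Endothelial cells, in which Id1, Id3, Bmpr2 and Smad6 are commonly expressed, were followed with 12 markers. Their median difference was 0.0047, where limma called 0 of the 12 and 1 had an unadjusted p under 0.05. Their summed level was 11.69 to 12.13 in the CD133 high fraction and 11.70 to 11.95 in the CD133 low fraction, with the highest value on CD133 high replicate 1. In 5 of the 12, replicate 1 was above and replicates 2 and 3 were below every CD133 low array, as in Id1, beside 6.87% of all probe sets. Other markers of the list went another way. Ptprb was at 8.91 to 9.08 on the CD133 high arrays against 8.16 to 8.58. On replicates 2 and 3, Cdh5 was at 8.15 and 8.63 against 7.77 to 8.14 on the CD133 low arrays. Tek was there at 7.97 and 7.83 against 7.34 to 7.57. None of the 12 was near 0, and the lowest, Tie1, averaged 6.95. Of the lymphocyte markers 0 of 10 had the order of Id1, of the fibroblast markers 0 of 10, of the macrophage and monocyte markers 1 of 11 and of the epithelial markers 1 of 10. The part of endothelial RNA in the Id values was not tested.

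**Figure D4:**
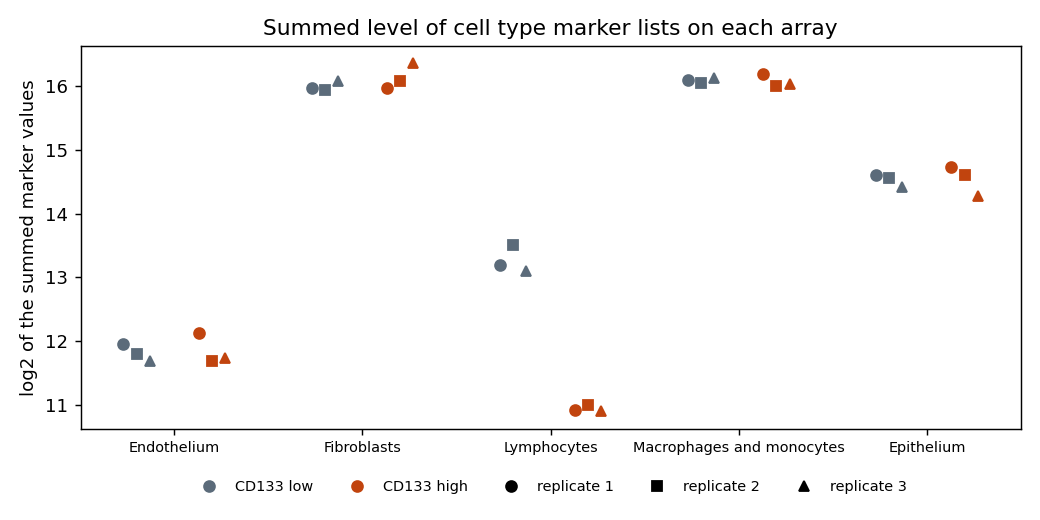
Log2 of the summed values of 5 cell type marker lists (vertical axis) on each of the 6 arrays, with colour for the fraction and shape for the replicate number. Lymphocyte markers lie at 10.90 to 11.00 on the CD133 high arrays and at 13.10 to 13.50 on the CD133 low arrays, and the endothelial sum is highest on CD133 high replicate 1, at 12.13.

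The fibroblast sum was 15.97 to 16.35 against 15.94 to 16.07, the macrophage and monocyte sum 16.00 to 16.18 against 16.05 to 16.13, and the epithelial sum 14.27 to 14.73 against 14.41 to 14.61, all with overlapping fractions. The epithelial marker Esrp1 was listed at 0 on 5 of the 6 arrays.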

How the data were processed

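Affymetrix arrays were hybridised with RNA of 6 sorted fractions, per the labels' protocols. The deposited table holds log2 values of 45101 probe sets, more than the array named in the labels carries. For the step from probes to these values, software and scaling are not given in the sources used. The 64 control probe sets were left out, and none of the sample columns was unused. Gene names came from the platform annotation: 34945 probe sets have 1 gene, 932 several and 9160 are unnamed here. An entry of the RefSeq gene table matched 34741, and 0 symbols changed. Each of 18193 genes was represented by its brightest probe set. The contrast of CD133 high minus CD133 low was fitted in limma 3.58.1 (R 4.3.3; lmFit, then eBayes with trend) for 45037 probe sets, and two-sided p-values were adjusted over all of them by Benjamini-Hochberg, with a threshold of 0.05. With 3 arrays a side no exact permutation p can be under 0.1, so none was run. Arrays were numbered in accession order, which pairs no samples. The steps were tested on simulated data. Part of the genotype of the line is not reported here. The members, the pathway and marker lists and the tests were chosen with earlier results of these data known. The other pathway genes named are those past the threshold and up to 3 per role with the smallest p. Any further gene named was picked with its values in view. The alternatives were other normalizations, filters, a floor, variance models, weights, a covariate, other probe set choices and leaving out each array. The number of arrays limits the precision. Figures were drawn with matplotlib 3.10.9.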

Additional observations from a re-analysis of the deposited data

How the results depend on the processing

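No paired analysis was possible because the labels number no replicates. Under 15 alternatives the differences of Bmp2 (1.13 to 1.49), Bmp4 (−0.44 to −0.29), Bmp7 (0.10 to 0.47), Bmpr1a (0.54 to 1.08), Bmpr2 (0.10 to 1.001) and Smad6 (0.35 to 0.71) kept their direction, as did Bmpr2 (0.54) with the mean of its probe sets and values below 5 set to 5, an alternative chosen after seeing the data. Those of Id1, Id2 and Id3 did not: with single arrays left out they ranged from −1.081 to 0.054, −0.388 to 0.082 and −0.406 to 0.302, and with the mean hybridisation control in the model they were 1.19, 0.54 and 0.90. Quantile normalization turned Id2 to 0.0072. The hybridisation covariate, which overlaps with the fraction, also turned Grem1 to −0.36 and the median of the other pathway genes to −0.026. It moved the median of the 10 members to 0.65. Without single arrays these medians were 0.20 to 0.42 and 0.21 to 0.39. That of the other pathway genes was 0.07 with values below 5 set to 5 and 0.50 without the dimmest 50% of probe sets. The mean of its probe sets turned Tcf4 to −0.14. Of the other pathway genes, 7 rose and 1 fell with array quality weights (beside 5.91% and 7.69% of all genes), and with single arrays left out 0 to 15 rose and 0 to 4 fell. The other 16 alternatives, single arrays among them, gave 0 in each direction. The cause of these changes was not tested.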
